A study of Mus musculus with 6 samples.

Results

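The AMPA and kainate receptor subunit genes were examined in mouse cortex taken at embryonic day 18. All 9 were found by matching identifiers to GENCODE M21 names, among 55401 gene rows in all: Gria1, Gria2, Gria3 and Gria4 for AMPA receptors and Grik1, Grik2, Grik3, Grik4 and Grik5 for kainate receptors. All 9 passed the filter on low counts, as did 19844 genes in all. The study measured total RNA by bulk RNA sequencing in 3 wild-type libraries and 3 libraries from Csmd3-/- embryos, all of strain C57BL/6 and all from matings between Csmd3 heterozygotes. The sources used here do not say which part of Csmd3 was removed or whether a library came from a single embryo, so p-values measure the spread between these libraries.

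AMPA and kainate receptors are cation channels that open when they bind glutamate. AMPA receptors carry most fast excitatory transmission, and kainate receptors act on both sides of the synapse and in developing axons. Each receptor is a tetramer of related subunits. In the kainate family Grik1, Grik2 and Grik3 encode the subunits that can form channels alone, and Grik4 and Grik5 encode the high-affinity subunits that need one of those partners to reach the surface. In Gria2, Grik1 and Grik2 transcripts a glutamine codon of the pore loop can be edited to an arginine codon by adenosine deamination, which lowers the calcium permeability of the channel.

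The pore-loop stretch is shown because it lets the subunits be compared at the codon that is the edited site in Gria2, Grik1 and Grik2. The 60 bases are coding sequence of the GENCODE M21 transcripts (mm10, written on the sense strand of each gene), with that glutamine codon in capitals.
Gria1: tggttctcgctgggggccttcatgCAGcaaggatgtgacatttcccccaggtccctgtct
Gria2: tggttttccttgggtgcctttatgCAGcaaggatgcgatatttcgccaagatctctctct
Gria3: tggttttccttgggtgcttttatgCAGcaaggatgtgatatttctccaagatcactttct
Gria4: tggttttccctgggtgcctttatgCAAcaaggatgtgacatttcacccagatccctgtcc
Grik1: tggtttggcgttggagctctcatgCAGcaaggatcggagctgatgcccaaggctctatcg
Grik2: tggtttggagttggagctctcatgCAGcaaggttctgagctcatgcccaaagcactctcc
Grik3: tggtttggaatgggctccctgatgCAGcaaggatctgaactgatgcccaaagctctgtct
Grik4: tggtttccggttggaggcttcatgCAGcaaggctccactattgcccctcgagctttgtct
Grik5: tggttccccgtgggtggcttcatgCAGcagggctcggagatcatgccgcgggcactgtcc
The codon is CAG in 8 genes and CAA in Gria4. In Gria2 it lies in exon 11 of 16 (chromosome 3, 80706911 to 80706913, minus strand), and in Grik4 in exon 14 of 19 (chromosome 9, 42547623 to 42547625, minus strand). Gene counts carry no bases, so editing itself was not measured. Over whole coding sequences the AMPA genes were 70.4% to 73.1% identical to each other, Grik4 and Grik5 were 72.6% identical, and Grik4 and Grik2 62.2%. The longest exact run shared by the annotated transcripts of any 2 members was 59 bases, between Gria3 and Gria4. How reads in such runs were counted was not given.

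One of the 9 members changed in the knockout libraries. Grik4 fell from 7.16 to 3.59 CPM (the count scaled to library size), with the 3 knockout libraries all below the 3 wild-type ones. The other 8 did not pass the test, and Gria2, the AMPA subunit with the highest level, was the only one of them with a higher mean in knockout. Thus 1 of 9 members was lower and 0 higher at an adjusted p under 0.05, against 2.53% of all tested genes lower and 5.21% higher (7.74% in either direction). At an unadjusted p under 0.05 there were 3 lower and 0 higher members by edgeR, against 9.71% and 12.5% of all tested genes (22.2% in either direction). DESeq2 and limma-voom each called the same number as edgeR, 1 lower and 0 higher.

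Levels of the subunits spanned a wide range within each family. On the scale of CPM per kilobase of merged exons, the wild-type means were 53.7 ± 6.05 for Grik5, 40.6 ± 4.90 for Gria2, 31.5 ± 2.89 for Grik3, 24.7 ± 4.78 for Gria1, 7.98 ± 0.263 for Gria4, 6.48 ± 0.231 for Gria3, 5.49 ± 0.772 for Grik2, 1.20 ± 0.294 for Grik1 and 1.20 ± 0.198 for Grik4 (SD, n = 3). In wild type the neighbours Grik3 and Gria1, Gria3 and Grik2, and Grik1 and Grik4 overlapped between libraries, and the other neighbours in this order did not. In the knockout libraries Grik1 and Grik4 no longer overlapped (means of 1.11 ± 0.144 and 0.602 ± 0.123), nor did Grik3 and Gria1 (31 ± 1.47 and 20.9 ± 0.839). Grik5 and Gria2 overlapped there, and their means stood in the opposite order (46.8 ± 0.790 and 47.2 ± 3.89). The order depends on the length used: per kilobase of the longest annotated transcript the wild-type means were 68.4 for Grik5 and 60.9 for Gria2 (59.5 and 70.7 in knockout), and in wild type Gria3, at 12.3, stood above Gria4, at 9.24.

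**Figure D1:**
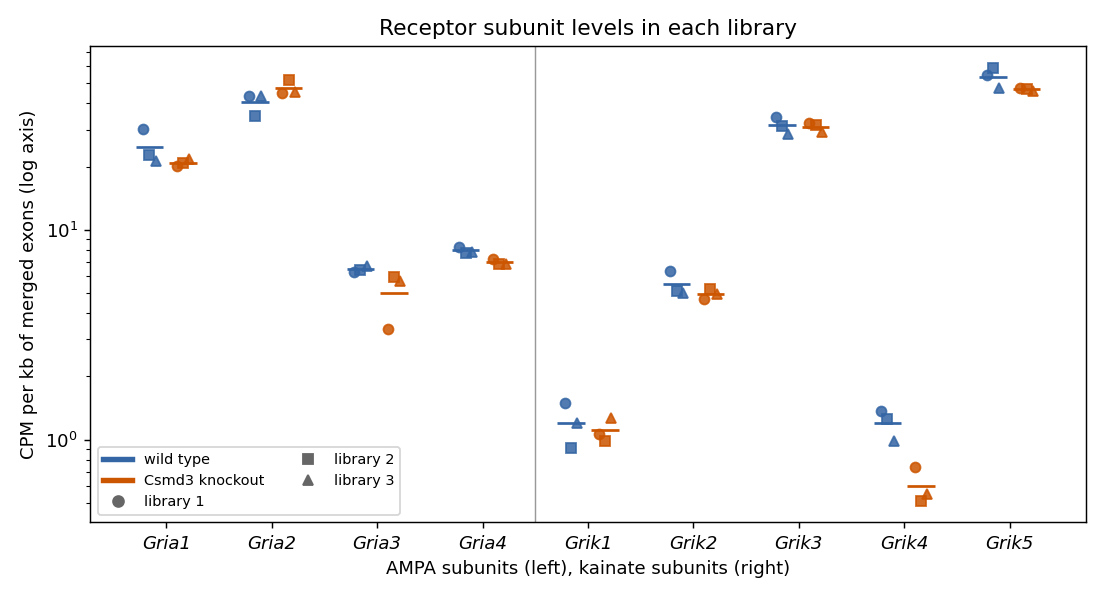
Level of each subunit gene in the 3 wild-type and 3 Csmd3 knockout libraries, in CPM per kilobase of merged exons on a log axis; points are libraries and short lines are group means. The Grik4 points of knockout (0.512 to 0.742) lie below those of wild type (0.981 to 1.37), and the Gria3 point of knockout library 1 (3.35) lies apart from the other 5 libraries (5.69 to 6.72).

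Grik4 (ENSMUSG00000032017.14, chromosome 9, 42518135 to 42944493, minus strand, mm10) encodes a high-affinity kainate subunit. Its level was 8.14, 7.48 and 5.85 CPM in wild-type libraries 1, 2 and 3 and 4.42, 3.05 and 3.28 CPM in knockout libraries 1, 2 and 3. The groups did not overlap, and the lowest wild-type library stood above the highest knockout library by more than 1 CPM. The means were 7.16 ± 1.18 and 3.59 ± 0.736 CPM (SD, n = 3), and the log2 fold change was -0.996 (SE 0.206, 95% interval -1.46 to -0.53, adjusted p = 0.019). Of all tested genes 2.73% had a log2 fold change as low or lower. The value rests on few fragments: each sequenced fragment seems to raise the deposited value by about 4, which puts Grik4 at about 314 fragments over the 3 wild-type and 170 over the 3 knockout libraries. The gene no longer passed when wild-type library 1 was removed (log2 fold change -0.90, adjusted p = 0.0754), nor with wild-type 2 removed (-0.96, 0.0716), knockout 2 removed (-0.88, 0.0761), knockout 3 removed (-0.93, 0.089), or both of these knockout libraries removed (-0.68, 0.465). It still passed with wild-type 3 removed (-1.12, adjusted p = 0.0126) or with knockout 1 removed (-1.17, 0.0241), and the direction was the same in each of these fits.

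Grik5 (ENSMUSG00000003378.9, chromosome 7, 25009849 to 25072346, minus strand) encodes the other high-affinity kainate subunit and had the highest mean level per kilobase of the 9 in wild type, but not in knockout. It stood at 283, 306 and 244 CPM in wild-type libraries 1, 2 and 3 and at 246, 242 and 238 CPM in the knockout libraries. Wild-type library 3 lay within the knockout range, so the groups overlapped. The log2 fold change was -0.20 (SE 0.08, 95% interval -0.39 to -0.01, adjusted p = 0.201). Without wild-type library 3 it was -0.28 and passed (adjusted p = 0.0272), and without wild-type library 2 it was -0.12 (adjusted p = 0.447).

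The kainate subunits that form channels alone did not pass the test. Grik3 (ENSMUSG00000001985.9, chromosome 4, 125490700 to 125714173, plus strand), the main one here, stood at 310, 281 and 258 CPM in the wild-type libraries and 288, 283 and 263 CPM in those of knockout. These ranges overlapped almost fully (log2 fold change -0.02, 95% interval -0.20 to 0.16, adjusted p = 0.901). Grik2 (ENSMUSG00000056073.16, chromosome 10, 49094833 to 49788766, minus strand) stood at 84.5, 67.9 and 65.9 CPM in the wild-type libraries and 62, 69 and 65.3 CPM in those of knockout. Wild-type library 1 was the high one, and the other 5 libraries overlapped (-0.15, 95% interval -0.39 to 0.08, adjusted p = 0.451). Without that library it was -0.04 (adjusted p = 0.852). Grik1 (ENSMUSG00000022935.16, chromosome 16, 87895900 to 88290265, minus strand) was low everywhere, at 10.1, 6.12 and 8.03 CPM in the wild-type libraries and 7.18, 6.61 and 8.5 CPM in those of knockout. Its interval was wide, from -0.56 to 0.32 around a log2 fold change of -0.12 (adjusted p = 0.784).

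Gria2 (ENSMUSG00000033981.14, chromosome 3, 80681450 to 80802835, minus strand) encodes the AMPA subunit whose edited form makes receptors nearly impermeable to calcium. It stood at 673, 543 and 677 CPM in wild-type libraries 1, 2 and 3 and at 695, 803 and 701 CPM in the knockout libraries. The groups did not overlap, but wild-type libraries 1 and 3 lay close under knockout library 1. The log2 fold change was 0.22 (SE 0.10, 95% interval -0.01 to 0.44, adjusted p = 0.236), which misses the threshold. Without wild-type library 2, the lowest, it was 0.12 (adjusted p = 0.486).

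Gria1 and Gria4 had lower means in knockout without passing; their products form calcium-permeable AMPA receptors where Gria2 protein is absent. Gria1 (ENSMUSG00000020524.16, chromosome 11, 57011387 to 57330244, plus strand) stood at 182, 137 and 128 CPM in the wild-type libraries and 122, 125 and 131 CPM in those of knockout. Wild-type library 1 was far above the rest, and the others overlapped (log2 fold change -0.24, SE 0.12, 95% interval -0.52 to 0.04, adjusted p = 0.298). Removing that library gave -0.08 (adjusted p = 0.617). Gria4 (ENSMUSG00000025892.16, chromosome 9, 4417896 to 4796234, minus strand) stood at 52.2, 49.1 and 49.6 CPM in the wild-type libraries and 45.9, 43.2 and 43.2 CPM in those of knockout. Its groups did not overlap, and the difference was small (-0.19, SE 0.08, 95% interval -0.36 to -0.02, adjusted p = 0.178).

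Gria3 (ENSMUSG00000001986.16, plus strand, 41400854 to 41678601) is the member on chromosome X. It stood at 61.8, 63.5 and 66.3 CPM in wild-type libraries 1, 2 and 3 and at 33.0, 58.4 and 56.1 CPM in the knockout libraries. Knockout library 1 alone was far below the other 5 libraries, which makes the interval wide (log2 fold change -0.38, SE 0.21, 95% interval -0.88 to 0.12, adjusted p = 0.361). Without knockout library 1 the log2 fold change was -0.16 (adjusted p = 0.425). With knockout libraries 2 and 3 left out, the single low library gave -0.94 and passed (adjusted p = 0.0163), and that fit assumes that a lone library varies like the others. Libraries also differed in sex-linked transcripts. Xist, transcribed from the inactive X chromosome, stood at 181, 1328 and 2020 CPM in the wild-type libraries and 56.4, 1946 and 11.4 CPM in those of knockout, and the summed level of 4 Y-linked genes at 150, 32.4 and 0.0175 CPM and 186, 38.5 and 180 CPM. Wild-type libraries 1 and 2 and knockout library 2 therefore held sizeable amounts of both. With the level of Y-linked genes as a covariate, a fit added after seeing the data, Gria3 was at -0.30 (edgeR adjusted p = 0.576). Beyond that fit, the part of sex in the Gria3 values was not tested.

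**Figure D2:**
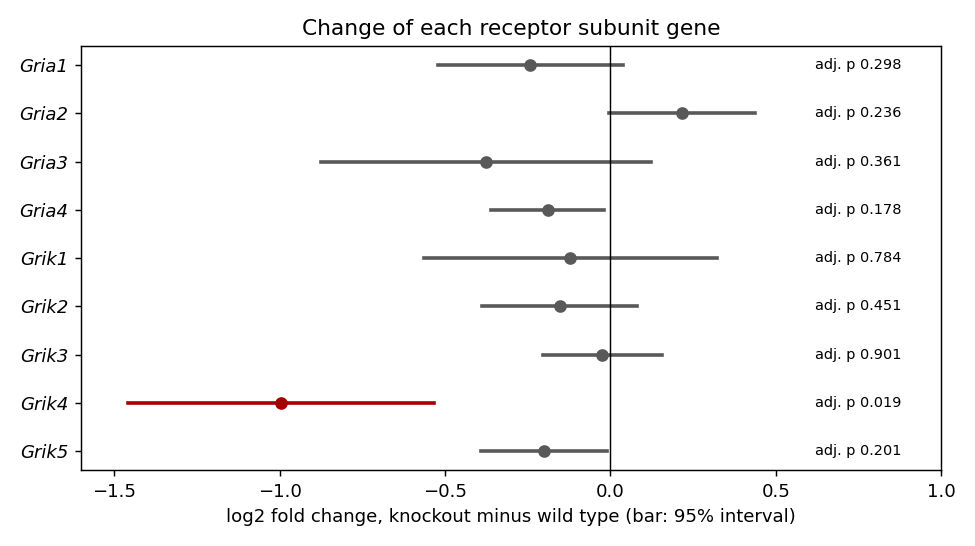
Log2 fold change (knockout minus wild type) of each subunit gene from edgeR, with its 95% interval and adjusted p. The interval of Grik4 (-1.46 to -0.53) is the one farthest from 0, and those of Gria1, Gria2, Gria3, Grik1, Grik2 and Grik3 include 0.

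As a group, 8 of 9 members had a negative log2 fold change (88.9%, against 49.7% of all tested genes), or 3 of 9 when libraries were scaled on neuron markers. Their median was -0.19, against 0.00 for all tested genes. The signs of Gria4, Grik1, Grik2, Grik3 and Grik5 turned under that setting, which uses 38 markers and moved the median of all genes by 0.23. The markers were 12 of neurons in general, 12 of glutamatergic neurons and 14 of interneurons. Their medians in the main fit were -0.26, 0.05 and -0.35, so the setting does not hold the glutamatergic markers alone equal. With neuron scaling the median of the members was 0.04, against 0.23 for all tested genes. Grik4 passed under the neuron scaling as well (-0.76, adjusted p = 0.0259). Gria2 was at 0.45 there and passed (adjusted p = 0.0307). Of the 9 members 4 had groups that did not overlap (Gria2, Gria3, Gria4 and Grik4), against 29.1% of all tested genes.

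Shares within each family do not depend on how libraries are scaled. Gria2 made up 49.2%, 48.7% and 54.9% of the AMPA subunit level per kilobase in wild-type libraries 1, 2 and 3 and 59.3%, 60.7% and 56.8% in the knockout libraries. All 3 knockout libraries were above all 3 wild-type ones. The mean share went from 50.9% ± 3.42 to 58.9% ± 1.96 (SD, n = 3), 8 percentage points higher, with an exact two-sided permutation p of 0.10, the smallest that 3 against 3 libraries allow, and 0.286 after adjustment over the 10 values tested in this way. Gria1 held 30.9% ± 3.78 in wild type and 26.1% ± 1.60 in knockout (n = 3, exact permutation p = 0.20), and these libraries overlapped. Per kilobase of the longest transcript the Gria2 means were 55.7% and 63.7%.

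In the kainate family Grik5 and Grik3 together held most of the level. Grik4 was a minor component in every library, at 1.39%, 1.28% and 1.18% in wild-type libraries 1, 2 and 3 and 0.862%, 0.602% and 0.671% in the knockout libraries. The groups did not overlap, and the mean went from 1.28% ± 0.104 to 0.712% ± 0.135 (SD, n = 3, exact permutation p = 0.10, adjusted 0.286). Grik3 held 33.9% ± 1.64 in wild type and 36.7% ± 0.838 in knockout (n = 3, exact permutation p = 0.10, adjusted 0.286), without overlap. Grik5 held 57.6% ± 2.59 and 55.4% ± 0.552 (n = 3, exact permutation p = 0.20), a difference of -2.24 percentage points that was -0.794 without wild-type library 2. None of these p-values could reach 0.05 in this design.

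The mean AMPA sum differed little between the groups. The mean kainate sum was lower in knockout, but wild-type library 3 (83.2 CPM per kilobase) lay within the knockout range (82.1 to 86.1). Neither sum was tested by itself. The summed AMPA level was 79.7 ± 8.10 CPM per kilobase in wild type and 80.0 ± 4.87 in knockout, and the summed kainate level 93.2 ± 8.67 and 84.4 ± 2.11 (SD, n = 3). The log2 ratio of the AMPA to the kainate sum was -0.23 ± 0.198 in wild type and -0.08 ± 0.1 in knockout, a difference of 0.15 (n = 3, exact permutation p = 0.40). The difference was 0.04 without wild-type library 2 and 0.23 without wild-type library 3.

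**Figure D3:**
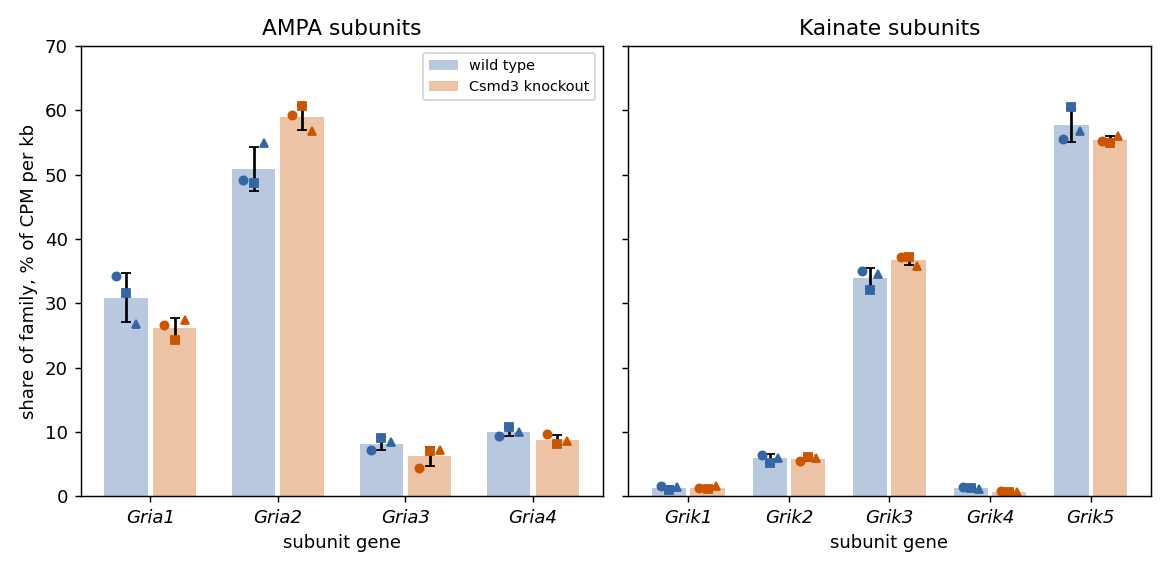
Share of each subunit gene in the summed CPM per kilobase of its family, in percent; bars are means of 3 libraries, error bars are SD and points are libraries (circle, square and triangle for libraries 1, 2 and 3). Gria2 is at 48.7% to 54.9% in wild type and 56.8% to 60.7% in knockout, and Grik4 is below 1.5% in every library.

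Receptor partners were described by 7 lists of 56 genes, of which 55 were tested. The members and these lists were chosen with earlier results of these data known, so their counts are a description and not independent support. Together 6 of 55 fell and 0 rose by edgeR, against 2.53% of all tested genes lower and 5.21% higher. At an unadjusted p under 0.05 there were 22 lower and 2 higher, against 9.71% and 12.5%. DESeq2 gave 10 lower and 1 higher, against 3.56% and 6.37% of the genes it tested, and limma-voom 7 lower and 1 higher, against 2.84% and 5.04%. Their median log2 fold change was -0.18, against 0.00 for all tested genes, and 46 of 55 were negative (83.6%, against 49.7% of all tested genes). Scaled on neuron markers the median was 0.05, against 0.23 for all tested genes, and 24 of 55 were negative. The count of lower partners ran from 0 without knockout library 3 to 13 without wild-type library 3. With other single libraries removed it was 4 (wild-type 1), 3 (wild-type 2), 3 (knockout 1) and 1 (knockout 2). With knockout libraries 2 and 3 both left out it was 0, in a fit with a lone knockout library. Scaled on neuron markers, which moved all genes up by 0.23 as given above, 3 partners fell (Cbln1, Grid1 and Nptxr) and 2 rose (Cnih4 and Dlg1), against 0.912% of all tested genes lower and 15.3% higher. There Cnih2, Cacng3, Dlg2 and Olfm1 did not pass (adjusted p of 0.252, 0.153, 0.107 and 0.174).

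AMPA receptor auxiliary subunits are membrane proteins that ride with the receptor and set its gating and surface delivery. Of 14 tested, 2 fell and 0 rose, against 2.53% and 5.21% of all tested genes. The median was -0.31 and 14 had a negative value. Scaled on neuron markers 9 were negative and the median was -0.07, against 0.23 for all tested genes. Cnih2, a cornichon that slows receptor closing, stood at 346, 394 and 291 CPM in the wild-type libraries and 269, 253 and 261 CPM in those of knockout. All wild-type libraries were above all knockout ones (log2 fold change -0.40, SE 0.10, adjusted p = 0.0443). Cacng3, a transmembrane AMPA receptor regulatory protein, stood at 12, 10.1 and 9.15 CPM and 6.59, 6.62 and 7.76 CPM. It too showed no overlap, and lay just inside the threshold (-0.58, SE 0.15, adjusted p = 0.0493; 0.0504 with upper-quartile scaling). The calls of both were lost when any 1 of 5 libraries was left out (all but wild-type 3). The kainate auxiliary subunits Neto1 and Neto2 did not pass by edgeR. DESeq2 called 1 of them lower, Neto1, and limma-voom called 0, against 3.56% and 2.84% of all genes they tested. Neto1 was also lower with the Y-linked covariate. Neto1 had the smaller p of them, with a mean of 48.4 ± 5.44 CPM in the wild-type libraries against 37.3 ± 3.35 CPM (-0.37, SE 0.11, adjusted p = 0.0671).

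In the list of extracellular binding proteins 2 of 11 tested fell and 0 rose, against 2.53% and 5.21% of all tested genes, with a median of -0.41. There were 10 negative values. Scaled on neuron markers 8 were negative and the median was -0.18, against 0.23 for all tested genes. The list was drawn up for AMPA and kainate receptors, but Cbln1, one of the 2, binds delta receptors. Cbln1, a secreted cerebellin that links delta receptors to presynaptic neurexins, stood at 37.8, 33.8 and 30.1 CPM in the wild-type libraries and 22.4, 22.5 and 19.1 CPM in those of knockout. The groups were clearly apart (-0.67, SE 0.12, adjusted p = 0.00979), and the call was lost without knockout library 3 (adjusted p = 0.0534). Olfm1, a secreted olfactomedin found in AMPA receptor complexes, stood at 223, 185 and 185 CPM and 152, 147 and 149 CPM. It showed no overlap either (-0.41, SE 0.08, adjusted p = 0.0196), and it no longer passed once a knockout library, whichever it was, had been removed (adjusted p up to 0.0938).

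Grid1, which encodes a delta receptor, a relative in the same gene superfamily that is organised by cerebellins, also fell. It stood at 26.5, 23.7 and 18.5 CPM in the wild-type libraries and 14.6, 11.4 and 14.0 CPM in those of knockout, without overlap (-0.78, SE 0.16, adjusted p = 0.0169). Removing wild-type library 1, wild-type 2, knockout 2 or knockout 3 ended the call (adjusted p up to 0.0686).

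Of 15 scaffold and trafficking genes 1 fell and 0 rose, against 2.53% and 5.21% of all tested genes. The median was -0.17, with 12 negative values. Scaled on neuron markers the median was 0.06, with 4 negative values, against a median of 0.23 for all tested genes. The gene that fell was Dlg2, which encodes the postsynaptic scaffold PSD-93, at 132, 147 and 208 CPM in the wild-type libraries and 97.2, 89.2 and 97.9 CPM in those of knockout. Wild-type library 3 was the high one, and the groups did not overlap (-0.78, SE 0.16, adjusted p = 0.0317). Removing wild-type library 2 or a knockout library, whichever it was, ended the call (adjusted p up to 0.123). Of 8 genes of receptor assembly 0 passed in either direction, also by DESeq2 and by limma-voom. At an unadjusted p under 0.05 there were 1 higher and 0 lower. The median was 0.06, or 0.29 when scaled on neuron markers (0.00 and 0.23 for all tested genes). Cnih4, a cornichon of the early secretory pathway, had the smallest p of the assembly genes, at 30.4 ± 2 and 35.9 ± 2.40 CPM (0.24, SE 0.09, adjusted p = 0.172). Of the 3 adenosine deaminases acting on RNA 0 passed (0 higher and 2 lower at an unadjusted p under 0.05; 0 by DESeq2 and by limma-voom). Their median was -0.19, or 0.04 when scaled on neuron markers (0.00 and 0.23 for all tested genes). Adarb2, which binds double-stranded RNA, had the smallest p, at 12.7 ± 2.81 and 9.22 ± 0.175 CPM (-0.46, SE 0.17, adjusted p = 0.147). Adarb1, the enzyme that edits the Gria2 codon, was named after its values were seen and stood at 60.5 ± 3.85 and 52.9 ± 3.37 CPM (-0.19, SE 0.08, adjusted p = 0.213).

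**Figure D4:**
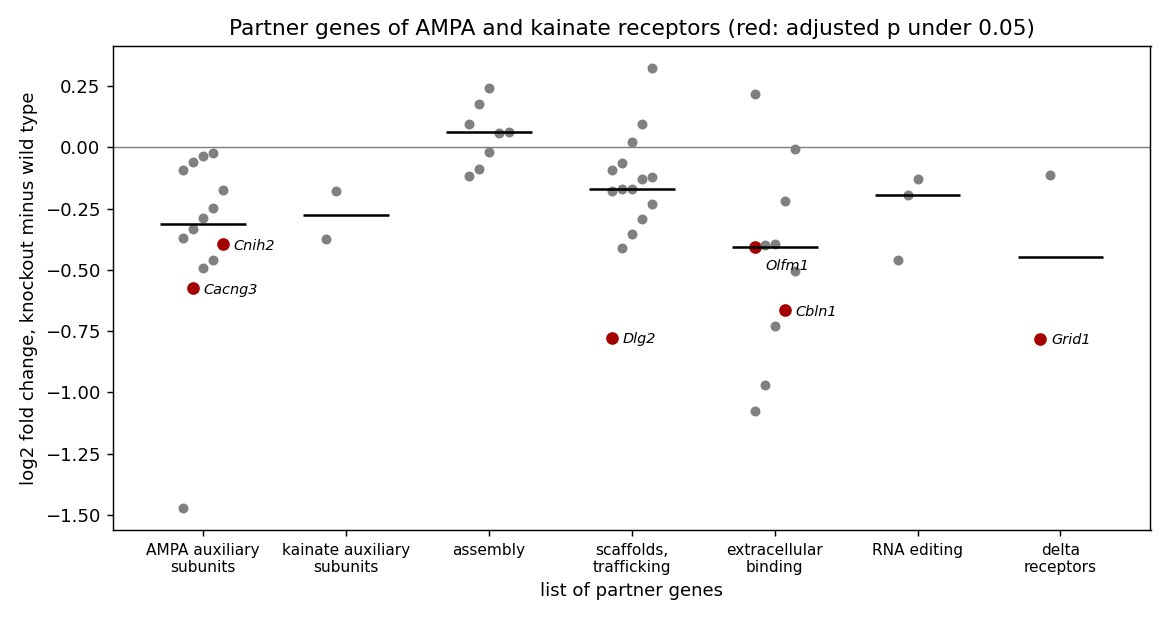
Log2 fold change (knockout minus wild type) of 55 partner genes in 7 lists; each point is a gene, black lines are list medians and red points passed the test. The 6 red points (Cnih2, Cacng3, Dlg2, Olfm1, Cbln1 and Grid1) are all below 0, and with this TMM scaling the assembly list is the one with a median above 0.

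Values of other cell types moved with the groups. Beside the marker counts below, 2.53% of all tested genes fell and 5.21% rose. The targeted gene Csmd3 fell but was not absent (15 ± 1.72 against 9.98 ± 0.294 CPM, -0.59, adjusted p = 0.0233), so it checks the labels weakly. Library totals ran from 54244288 to 68269607 deposited counts. Of the cortical glutamatergic markers 1 of 12 fell and 0 rose (median 0.05), with a summed level of 3372 to 3654 CPM in wild type and 3432 to 3921 in knockout, so the labelled tissue shows its neurons in every library. Of general neuron markers 4 of 12 fell and 0 rose, with a summed level of 7319 to 8630 CPM in wild type and 6409 to 6751 in knockout. Of interneuron markers 3 of 14 fell and 0 rose (442 to 557 and 356 to 435 CPM), and of oligodendrocyte precursor markers 4 of 8 fell and 1 rose (232 to 293 and 195 to 226 CPM). Markers of dividing cells rose in 7 of 9 (471 to 588 and 762 to 789 CPM) and those of meninges and mural cells in 10 of 10 (108 to 119 and 659 to 817 CPM). Markers of microglia and macrophages rose in 6 of 8 (29.7 to 33.4 and 82.3 to 102 CPM) and those of endothelium in 5 of 7 (221 to 249 and 380 to 467 CPM). Of radial glia and astrocyte markers 2 of 10 rose and 0 fell, while 0 of 5 red blood cell markers and 0 of 10 markers of neighbouring brain regions passed in either direction. Of choroid plexus markers 1 of 3 tested rose and 0 fell, and the list summed to 0.776 to 0.978 CPM in wild type and 8.70 to 478 CPM in knockout. The gene that rose was Aqp1, at 0.332 to 0.620 CPM in wild type and 6.80, 6.26 and 14.9 CPM in knockout libraries 1, 2 and 3. Ttr stood at 1.91, 35.7 and 452 CPM in these knockout libraries and did not pass. Folr1 and Otx2 were not tested and were at 0 in knockout library 1, but Folr1 was at 0 in every wild-type library as well. The part of these cells in the receptor values was not tested, and in bulk tissue fewer cells of a type and less RNA per cell cannot be told apart.

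The genes most like each family in level over the 6 libraries were found by Pearson's r on log2 CPM, among 6711 genes whose mean log2 CPM reached 5. For the summed AMPA genes these were Dpp8 (r = 0.99), 4632415L05Rik (0.98) and Zfp612 (0.98), and for the summed kainate genes Agrn (0.99), Cacnb1 (0.99) and Chst2 (0.99). With 6 libraries, 48 and 238 genes had r above 0.9, so these names are a description of these libraries only. The sums used here were of CPM without division by length, so they follow mainly the subunits with most counts. Gria2 held 70.5% of the AMPA sum in wild type and 77% in knockout. Grik3 and Grik5 held 43.6% and 42.8% of the kainate sum in wild type, and 46.6% and 40.5% in knockout.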

How the data were processed

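The deposited table holds whole-number estimated counts per gene for 6 libraries, per the file headers. Tools in the submitters' processing notes are HISAT2 2.0.5, StringTie 1.3.4, FastQC 0.11.9 and Trim Galore 0.4.4, with build mm10. Counting program, annotation release and strand handling: not given in the sources used here. Low values pile up at 4 (1298 genes in wild-type library 1, against 492 at 3 and 318 at 5), so a fragment appears to add about 4. Counts cover 54244288 to 68269607 per library and limit Grik1 and Grik4 most.

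Identifiers were matched to GENCODE M21 (mm10); 55141 of 55401 rows were named. edgeR 4.0.16 (R 4.3.3) filtered genes (filterByExpr), scaled libraries (TMM) and gave a robust quasi-likelihood test, with Benjamini-Hochberg adjustment over 19844 genes and a threshold of 0.05. SE is the absolute log2 fold change over the square root of F. CPM is scaled by TMM. Shares used an exact permutation test over libraries, adjusted over 10 values. The test was run on simulated data for this comparison with each gene's own (tagwise) dispersion and, after that outcome was seen, with the trended dispersion. For each dispersion 100 genes were changed by 1 on the log2 scale and 100 by 0.5. With tagwise dispersion (19259 genes) 90% and 14% of them were recovered, with 22 false calls. That is a larger share of the calls than the threshold of 0.05 aims at, so adjusted p-values close under it are less certain. With trended dispersion (19272 genes) 94% and 20% were recovered, with 4 false calls. Recovery was not split by level, so none is given for low-count genes such as Grik4.

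Alternatives were RLE and upper-quartile scaling, scaling on neuron markers, other filters, DESeq2 1.42.0, limma-voom 3.58.1, the replicate number as a block, counts divided by 4, libraries left out and, added after seeing the data, the level of Y-linked genes as a covariate. The members and lists were chosen with earlier results of these data known. All members were named, as were up to 4 partners per list past the threshold, or the one of smallest p, and the 3 genes most like each family.

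Small RNA genes on the same strand share exon bases with Gria2, Gria3, Gria4, Grik4 and Grid1, noncoding genes with Dlg2, and genes on the opposite strand with Cnih2 and Neto1, which makes those counts less certain.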

Additional observations from a re-analysis of the deposited data

How the results depend on the processing

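Grik4 kept its direction in all 17 alternatives (log2 fold change -1.19 to -0.684) and its call in 12, the exceptions being the removed libraries given with it above. The number of lower members was 1 in every alternative except with a single library removed, where it ran from 0 to 2. It was also 1 with knockout libraries 2 and 3 both out, but the gene was then Gria3. Scaling on neuron markers gave 1 higher member (Gria2), 3 lower and 2 higher partners, and turned Gria4 (0.0407), Grik1 (0.113), Grik2 (0.0841), Grik3 (0.21) and Grik5 (0.0334), none of which passed. Lower partners numbered 10 by DESeq2, 15 with the Y-linked covariate, 0 to 13 with a single library removed, and 0 with both of these knockout libraries out. Higher partners numbered 1 by DESeq2, limma-voom and the Y-linked covariate, and 0 to 2 with a single library removed. In those fits Grik1 ranged from -0.285 to 0.0584 and Grik3 from -0.086 to 0.0341, and Grik3 was at 0.0353 with both knockout libraries out. The share difference of Grik1 ranged from -0.167 to 0.129 percentage points (-0.0568 with both out) and that of Grik2 from -0.375 to 0.248. The causes were not tested. Sex as a 2-level covariate was not run, since every knockout library held Y-linked counts. With the replicate number as a block, 1 member (Grik4, adjusted p = 0.0335) and 4 partners were lower, and 686 genes were higher and 255 lower overall. Cnih2 (adjusted p = 0.0811), Cacng3 (0.112) and Csmd3 (0.0664) did not pass with it. Same-numbered libraries did not deviate together (r = 0.028, -0.003 and 0.002), so the numbers were not taken to pair them. In paired sign flips the Gria2 share had an exact p of 0.25, the smallest for 3 pairs.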

Other observations

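Nptxr, Grip2, Dlg1 and Nptx2 lay just outside the threshold by edgeR, as did Neto1 above. All of them passed with DESeq2. Apart from Neto1 they are named here after their values were seen. Nptxr, a receptor for neuronal pentraxins that cluster AMPA receptors, stood at 140, 119 and 79.0 CPM in wild-type libraries 1, 2 and 3 and 60.8, 49.2 and 62.2 CPM in the knockout libraries (edgeR log2 fold change -0.97, SE 0.22, adjusted p = 0.0536). The groups did not overlap, and 890 exon bases are shared with Npcd on the same strand, so counts of these genes may be mixed. Nptx2, one of those pentraxins, had a log2 fold change of -0.73 (SE 0.21, adjusted p = 0.0669). Grip2, a scaffold that binds AMPA receptor tails, averaged 92.3 ± 8.27 CPM over the wild-type libraries against 72.3 ± 6.73 CPM (SD, n = 3; -0.35, SE 0.10, edgeR adjusted p = 0.0562). Dlg1, which encodes the scaffold SAP97 that binds Gria1 protein, stood at 49.4, 52.6 and 61.0 CPM in wild type and 67.3, 70.2 and 66.5 CPM in knockout (0.32, SE 0.09, adjusted p = 0.0638), while Dlg2 fell. The difference between these relatives was not tested.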
